A study of Mus musculus with 4 samples.

Results

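The genes described are 10 of the 54532 genes in the count table, chosen by name as the Fc receptors for IgG, their partner adaptors and the TREM receptors that use the same kind of adaptor. They comprise the Fc gamma receptor genes *Fcgr1*, *Fcgr2b*, *Fcgr3* and *Fcgr4*, the neonatal Fc receptor gene *Fcgrt*, the adaptor genes *Fcer1g* and *Tyrobp*, and the TREM family genes *Trem1*, *Trem2* and *Treml4*. The rule itself used no expression value, although earlier results of these data were known when the genes were proposed. RNA-seq was performed on TAMs (tumor-associated macrophages) of mice bearing NB9464, a MYCN-amplified mouse neuroblastoma line. Animals on a C57BL/6 background, a few weeks of age, had the cells implanted under the skin, received no treatment and gave their tumors on day 40. In SykMC-KO mice a floxed *Syk* allele is combined with the lysozyme M (*Lyz2*) Cre transgene, which acts in neutrophils and monocytes as well as in macrophages, and SykMC-WT mice are the wild type controls. CD11b and F4/80 magnetic beads were used to isolate the TAMs, and 2 libraries per genotype were sequenced, M7 and M8 labelled SykMC-WT and M9 and M10 labelled SykMC-KO. The sources used here do not say whether the libraries came from separate animals or from pools, so the p-values measure only the spread between these libraries, which may be technical.

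Fc gamma receptors bind the constant part of IgG and let macrophages take up or kill antibody-coated targets. The activating receptors encoded by *Fcgr1*, *Fcgr3* and *Fcgr4* have no signalling motif of their own in the mouse and rest on the common gamma chain, the product of *Fcer1g*, which carries an ITAM (immunoreceptor tyrosine-based activation motif). Src family kinases phosphorylate the ITAM, and Syk docks on it and passes the signal on. *Fcgr2b* encodes the inhibitory receptor, which carries an inhibitory motif in place of the ITAM and recruits the phosphatase SHIP1. *Tyrobp* encodes DAP12, the ITAM adaptor of TREM receptors. The product of *Trem1* amplifies inflammatory responses in neutrophils and monocytes, that of *Trem2* senses lipids and apolipoproteins in tissue macrophages, and that of *Treml4* is found on myeloid cells. *Fcgrt* encodes FcRn, which uses no ITAM and protects IgG and albumin from breakdown inside cells.

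The labels were checked first, because *Syk* is both the targeted gene and the kinase that the ITAM recruits. *Syk* measured 27.9 and 23.2 CPM (counts brought to a common library size with TMM factors) in M7 and M8, and 196 and 160 CPM in M9 and M10. It was therefore higher in the libraries labelled SykMC-KO, by 2.80 on the log2 scale (SE 0.194, adjusted p = 0.000674, edgeR quasi-likelihood test with Benjamini-Hochberg adjustment), which goes against the label. Counts over the whole gene also take in reads from outside a deleted part. *Lyz2*, the gene from which Cre is expressed, measured 296, 208, 8.64 and 20.2 CPM in the same order, lower in the libraries labelled SykMC-KO at -4.13 on the log2 scale (adjusted p = 0.00156, edgeR). Its level was thus low where the labels place the Cre, so that *Lyz2* did not go against the labels while *Syk* did. Every direction below is given for the libraries as labelled.

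The libraries also differed in make-up. Total counts lay between 20755886 and 23518045. Mitochondrial genes took 2.20% and 2.34% of the counts in the libraries labelled SykMC-WT, 6.00% in M9 and 15.9% in M10. The libraries labelled SykMC-KO had more of all 10 macrophage markers, whose summed levels were 950 to 1342 CPM against 6568 to 10930 CPM, and of all 6 pan-leukocyte genes. Among 8 fibroblast genes 5 were lower, with summed levels of 12626 to 14531 CPM against 4039 to 4958 CPM. The 8 tumor genes summed to 285 and 323 CPM in M7 and M8, and 210 and 331 CPM in M9 and M10; within the list *Th* and *Dbh* had 0 counts in every library, and *Mycn* measured 22.2, 21.4, 29.3 and 43.5 CPM. The members moved with the macrophage and leukocyte genes, and the part of cell make-up in their differences was not tested. In bulk samples, fewer cells of a type and less RNA per cell cannot be told apart. Each member is therefore given on the TMM scale, relative to the macrophage markers, and as ratios within a library.

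*Fcgr2b*, *Fcgr4*, *Fcgr3* and *Fcer1g* lie in this order on chromosome 1, and *Trem1*, *Treml4* and *Trem2* on chromosome 17 (GRCm38/mm10, GENCODE M21). *Fcgr2b* (ENSMUSG00000026656) spans chr1:170958617-170976547 on the minus strand. *Fcgr4* (ENSMUSG00000059089) follows 42.4 kb further, at chr1:171018920-171029761 on the plus strand. *Fcgr3* (ENSMUSG00000059498) starts 21.4 kb beyond it, at chr1:171051174-171064935 on the minus strand. Only 1 of the 4 Fc gamma receptor genes, *Fcgr1* (ENSMUSG00000015947), stands elsewhere, at chr3:96282909-96293969 on the minus strand. The adaptor gene *Fcer1g* (ENSMUSG00000058715) spans chr1:171229572-171234365 on the minus strand. The other adaptor gene, *Tyrobp* (ENSMUSG00000030579), is at chr7:30413760-30417585 on the plus strand, on the same chromosome as *Fcgrt* (ENSMUSG00000003420), at chr7:45092990-45103851 on the minus strand. The TREM genes are all on the plus strand. *Trem1* (ENSMUSG00000042265) spans chr17:48232768-48246924, *Treml4* (ENSMUSG00000051682) chr17:48264295-48275360 and *Trem2* (ENSMUSG00000023992) chr17:48346401-48354147. Counts cover each gene as a whole. Of the stretches of 31 bases in *Fcgr3* transcripts, 13.4% also occur in *Fcgr2b*, so a part of the reads of this pair could be divided between them, and *Fcgr2b* shares 155 exon bases with the antisense gene *Gm38204*. For the other members the share found in any other gene was at most 1.88%.

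The promoters of 5 members are shown because they set a large change beside smaller ones within each family: *Fcgr4* and *Fcgr1* beside the inhibitory *Fcgr2b*, and *Trem1* beside its neighbour *Trem2*. Each window runs from 250 bases before to 50 bases after the transcription start (RefSeq, GRCm38.p6), 5′ to 3′ on the strand of the gene. Capitals mark matches, on either strand, to GAGGAA, a core of PU.1 sites (TTCCTC on the other strand), and to TTCNNNGAA, the core bound by STAT factors.
Fcgr1, chr3:96293920-96294219, minus strand: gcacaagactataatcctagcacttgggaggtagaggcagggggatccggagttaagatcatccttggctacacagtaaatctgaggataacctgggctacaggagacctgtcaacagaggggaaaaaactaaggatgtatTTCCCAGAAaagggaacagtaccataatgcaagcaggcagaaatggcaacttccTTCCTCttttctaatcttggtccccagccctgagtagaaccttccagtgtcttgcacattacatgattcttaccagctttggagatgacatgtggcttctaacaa
Fcgr4, chr1:171018676-171018975, plus strand: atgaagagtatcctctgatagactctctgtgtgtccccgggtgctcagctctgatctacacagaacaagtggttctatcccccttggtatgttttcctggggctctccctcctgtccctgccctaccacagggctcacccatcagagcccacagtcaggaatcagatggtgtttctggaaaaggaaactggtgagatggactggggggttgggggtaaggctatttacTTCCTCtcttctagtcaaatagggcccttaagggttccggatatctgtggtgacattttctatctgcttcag
Fcgr2b, chr1:170976022-170976321, minus strand: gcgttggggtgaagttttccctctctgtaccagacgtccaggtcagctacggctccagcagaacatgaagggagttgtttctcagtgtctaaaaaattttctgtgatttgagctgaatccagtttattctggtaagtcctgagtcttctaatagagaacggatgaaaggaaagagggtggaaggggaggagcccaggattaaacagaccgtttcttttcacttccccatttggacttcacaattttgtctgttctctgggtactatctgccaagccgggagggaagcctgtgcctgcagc
Trem1, chr17:48232489-48232788, plus strand: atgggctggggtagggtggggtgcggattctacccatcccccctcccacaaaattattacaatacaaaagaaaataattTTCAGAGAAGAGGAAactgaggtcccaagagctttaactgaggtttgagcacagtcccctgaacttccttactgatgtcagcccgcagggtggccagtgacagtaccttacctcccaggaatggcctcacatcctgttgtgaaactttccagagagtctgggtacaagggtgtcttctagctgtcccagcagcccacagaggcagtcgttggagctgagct
Trem2, chr17:48346151-48346450, plus strand: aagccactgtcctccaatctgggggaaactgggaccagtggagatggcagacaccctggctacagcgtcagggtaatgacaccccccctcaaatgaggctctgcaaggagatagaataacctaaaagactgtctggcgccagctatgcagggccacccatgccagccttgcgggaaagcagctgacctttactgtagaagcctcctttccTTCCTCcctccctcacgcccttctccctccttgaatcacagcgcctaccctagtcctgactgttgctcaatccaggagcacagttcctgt

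Promoters were found for 9 of the 10 members, *Tyrobp* not among them. GAGGAA occurred in 6 of the 9, namely *Fcgr1*, *Fcgr3*, *Fcgr4*, *Trem1*, *Trem2* and *Treml4*, and in 28.3% of the 32851 promoters in the whole table. Its first base lay at -55 from the start in *Fcgr1*, at -22 in *Fcgr4* and at -40 in *Trem2*. These windows of *Fcgr2b*, *Fcgrt* and *Fcer1g* held neither motif. TTCNNNGAA occurred in *Fcgr1* at -109 and in *Trem1* at -171, against 8.30% of all promoters. The matches describe letters in the window and are not measured sites.

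All 10 members were higher in the libraries labelled SykMC-KO on the TMM scale. The count became 3 relative to macrophage markers, where 0.869% of the genes tested were called higher and 86.2% lower. It became 2 relative to pan-leukocyte genes, where 0.456% were called higher and 91.2% lower. On each of these scales 1 member, *Fcgrt*, was lower. On the TMM scale 22.7% of the 16451 genes tested were called higher and 16.7% lower. The same 10 were called by the DESeq2 Wald test, which called 19.6% of genes higher, and with a log2 fold change of at least 1 also required, which left 14.7%. For all 10 members both libraries labelled SykMC-KO lay above both labelled SykMC-WT, an arrangement found for 38.0% of the genes tested. The median of their log2 fold changes was 3.39 (range 1.29 to 5.74), beside a median of 0.02 over all genes tested. *Fcgrt* had a larger log2 fold change than 86.9% of the genes tested, and the other members than 95.2% to 99.7% of them. Together the members took 0.0612% and 0.0455% of all counts in M7 and M8, and 0.324% and 0.203% in M9 and M10.

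**Figure D1:**
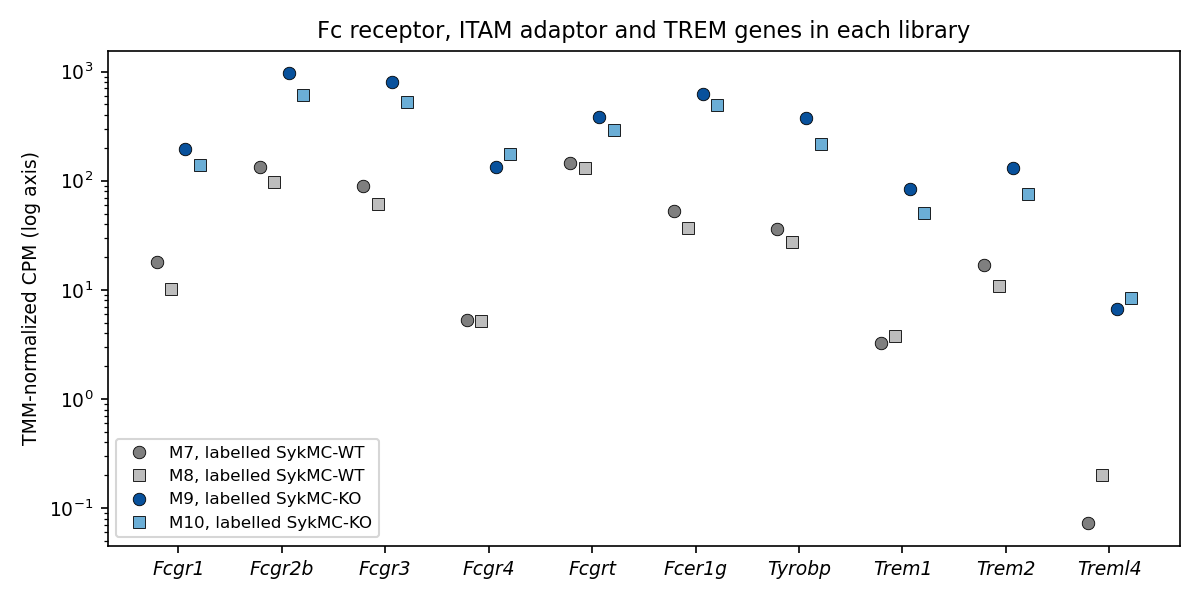
TMM-normalized CPM (log axis) of the 10 members in each library; grey points are M7 and M8, labelled SykMC-WT, and blue points are M9 and M10, labelled SykMC-KO. For every member both blue points lie above both grey points, and M10 lies above M9 for *Fcgr4* and *Treml4* only.

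Of the activating Fc gamma receptors, *Fcgr4*, at low abundance in the libraries labelled SykMC-WT, differed most. *Fcgr4* encodes a receptor for IgG2a and IgG2b that is found on monocytes, macrophages and neutrophils. It had 146, 127, 2735 and 3224 counts in the order M7 to M10, or 5.32, 5.17, 133 and 176 CPM. Both libraries labelled SykMC-WT were thus close to each other and far below both labelled SykMC-KO. The means were 5.25 ± 0.109 CPM (SD, n = 2) and 154 ± 30.3 CPM (SD, n = 2), and edgeR gave a log2 fold change of 4.88 (SE 0.219, adjusted p = 0.000486), or 29.4-fold.

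*Fcgr1*, the high-affinity receptor for monomeric IgG2a, had 492, 250, 4029 and 2553 counts in M7, M8, M9 and M10, or 17.9, 10.2, 196 and 139 CPM. The pairs did not overlap, with M8 the lowest and M9 the highest. Its means were 14.1 ± 5.49 CPM and 167 ± 39.9 CPM (SD, n = 2 each), a log2 fold change of 3.57 by edgeR (SE 0.328, adjusted p = 0.00110). *Fcgr3*, the low-affinity activating receptor and the most abundant of the 4 per length, measured 89.3, 61.1, 795 and 523 CPM, from 2450, 1502, 16371 and 9603 counts. Again M8 was lowest and M9 highest. Its means were 75.2 ± 19.9 CPM and 659 ± 192 CPM (SD, n = 2 each), and the log2 fold change was 3.13 by edgeR (SE 0.305, adjusted p = 0.00129).

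The inhibitory receptor gene had the smallest difference of the 4 on the TMM scale. *Fcgr2b* had 3693, 2370, 19884 and 11240 counts, or 135, 96.4, 965 and 612 CPM in M7, M8, M9 and M10. M9 stood well above M10, and both stood above M7 and M8. Its means were 116 ± 27.0 CPM and 789 ± 249.5 CPM (SD, n = 2 each), and the log2 fold change was 2.77 by edgeR (SE 0.304, adjusted p = 0.00171), or 6.83-fold. With any library left out, the log2 fold changes of these 4 genes lay between 2.32 and 4.98. With DESeq2 size factors, library size only, other filters on low counts or the DESeq2 Wald test, all 4 Fc gamma receptor genes were called higher. With the macrophage markers or pan-leukocyte genes as the reference, only *Fcgr4* of the 4 was. Relative to pan-leukocyte genes *Fcgr2b* stood at -0.61 (adjusted p = 0.0613) and *Fcgr3* at -0.25 (adjusted p = 0.409, edgeR). The median of all genes tested was -3.34 on that scale.

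*Fcgrt* differed least of all members on the TMM scale. It stood at -1.45 relative to the macrophage markers and -2.09 relative to pan-leukocyte genes. The medians of all genes tested on these scales were -2.69 and -3.34. The log2 fold change of *Fcgrt* was larger than that of 86.9% of genes under TMM and 86.4% relative to the macrophage markers. It had 3958, 3229, 7976 and 5303 counts in M7, M8, M9 and M10, or 144, 131, 387 and 289 CPM. The libraries did not overlap by genotype, with M8 the lowest and M9 the highest. The means were 138 ± 9.12 CPM and 338 ± 69.5 CPM (SD, n = 2 each), a log2 fold change of 1.29 by edgeR (SE 0.203, adjusted p = 0.00493). *B2m*, which encodes the light chain that FcRn needs, changed by 1.92 (adjusted p = 0.00517, edgeR).

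Both adaptor genes rose on the TMM scale. Relative to pan-leukocyte genes *Tyrobp* stood at -0.19 and did not pass the test (adjusted p = 0.527, edgeR). The median of all genes tested on that scale was -3.34. *Fcer1g* measured 53.1, 37.1, 628 and 498 CPM in M7, M8, M9 and M10, from 1457, 911, 12927 and 9146 counts. M8 was lowest and M9 highest, and the pairs were far apart. Its means were 45.1 ± 11.3 CPM and 563 ± 91.4 CPM (SD, n = 2 each), and its log2 fold change was 3.64 by edgeR (SE 0.261, adjusted p = 0.000716), or 12.5-fold. *Tyrobp* measured 36.2, 27.6, 377 and 215 CPM, from 992, 679, 7768 and 3944 counts. M10 had much less than M9, and both were far above M7 and M8. Its means were 31.9 ± 6.04 CPM and 296 ± 115 CPM (SD, n = 2 each), and its log2 fold change was 3.21 by edgeR (SE 0.318, adjusted p = 0.00136), or 9.28-fold.

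The TREM genes rose by unequal amounts on the TMM scale. Relative to pan-leukocyte genes *Trem2* stood at -0.49 and did not pass the test (adjusted p = 0.145, edgeR), beside a median of -3.34 over all genes tested. *Trem1* had 89, 93, 1728 and 927 counts in M7, M8, M9 and M10, or 3.24, 3.78, 83.9 and 50.5 CPM. Both libraries labelled SykMC-WT were nearly equal and both labelled SykMC-KO far above them. The means were 3.51 ± 0.382 CPM and 67.2 ± 23.6 CPM (SD, n = 2 each), a log2 fold change of 4.26 by edgeR (SE 0.306, adjusted p = 0.000716), or 19.1-fold. *Trem1* is also expressed by neutrophils, and 5 of the 6 tested of 9 neutrophil markers were higher too on the TMM scale. The 9 summed to 21.4 and 31.9 CPM in M7 and M8, and 391 and 183 CPM in M9 and M10. *S100a9* had the most counts of the 9, with 235, 406, 4630 and 1744 in M7, M8, M9 and M10. *Ly6g*, *Camp* and *Ngp* did not pass the filter, with at most 15 counts in a library, and *Ltf* was not called (adjusted p = 0.0851, edgeR). Relative to the macrophage markers 0 of the 6 were called higher and 0 lower, beside 0.869% and 86.2% of all genes tested. The part of neutrophil RNA in the *Trem1* difference was not tested.

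*Trem2* measured 16.8, 10.9, 130 and 75.8 CPM in M7, M8, M9 and M10, from 461, 268, 2683 and 1391 counts. Its libraries followed the order of *Tyrobp*, with M8 lowest and M9 highest. The means were 13.9 ± 4.17 CPM and 103 ± 38.5 CPM (SD, n = 2 each), and the log2 fold change was 2.89 by edgeR (SE 0.335, adjusted p = 0.00201), or 7.43-fold. *Treml4* had the largest fold change from the fewest reads, with 2, 5, 139 and 154 counts, or 0.0729, 0.203, 6.75 and 8.39 CPM. The count in M7 was under 3, the smallest signal taken as detectable. Its log2 fold change was 5.74 by edgeR (SE 0.594, adjusted p = 0.00150), and it became 5.17 without M7 and 6.58 without M8. The summed counts, 7 against 293, gave a ratio of 55.9 after scaling, with an exact 95% interval of 26.8 to 140 that covers counting error only.

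*Fcgr4* and *Treml4* were the members with more in M10 than in M9. Of the genes called higher, 28.5% had M10 above M9, against 49.6% of all genes tested. The other 8 members were highest in M9, and 7 of them, all but *Trem1*, were higher in M7 than in M8.

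Levels per length put the adaptor and receptor genes on 1 scale. In the libraries labelled SykMC-WT, *Fcgrt* was highest at 65.6 ± 4.34 CPM per kb of summed exons (SD, n = 2). It was followed by *Fcer1g* at 51.6 ± 13.0, *Tyrobp* at 47.8 ± 9.05 and *Fcgr3* at 43.3 ± 11.5 CPM per kb, whose libraries overlapped from each to the next. Below these came *Fcgr2b* at 20.0 ± 4.66 CPM per kb, then *Fcgr1* at 5.43 ± 2.12 and *Fcgr4* at 4.18 ± 0.0872 CPM per kb, which overlapped. *Trem2*, *Trem1* and *Treml4* stood last, at 2.80 ± 0.844, 1.17 ± 0.127 and 0.0692 ± 0.0462 CPM per kb.

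The order differed in the libraries labelled SykMC-KO. *Fcer1g* led at 644 ± 105 CPM per kb (SD, n = 2), above *Tyrobp* at 444 ± 172 and *Fcgr3* at 380 ± 111 CPM per kb, which overlapped. *Fcgrt*, *Fcgr2b* and *Fcgr4* followed without separation between neighbours, at 161 ± 33.1, 136 ± 43.1 and 123 ± 24.1 CPM per kb. *Fcgr1* came next at 64.6 ± 15.4 CPM per kb, then *Trem1* and *Trem2*, which overlapped at 22.4 ± 7.88 and 20.8 ± 7.79 CPM per kb, and *Treml4* at 3.79 ± 0.582 CPM per kb. Some places depended on the annotated length used. Divided by the longest coding transcript in place of all exons, *Fcgr2b* stood above *Fcgrt* in the libraries labelled SykMC-KO, at 223 ± 70.4 and 191 ± 39.3 CPM per kb with overlap, *Fcgrt* no longer overlapped *Fcgr4* there, and *Fcgrt* overlapped *Fcer1g* in the libraries labelled SykMC-WT. *Trem2* moved most, since its longest coding transcript has 1088 bases and its summed exons 4946 bases. It then measured 12.7 ± 3.84 and 94.7 ± 35.4 CPM per kb and stood above *Fcgr1* in both genotypes, overlapping it in the libraries labelled SykMC-KO.

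Scaling the libraries to the 10 macrophage markers asked how the members moved relative to macrophage transcripts. This scaling shifted the median log2 fold change of all genes tested from 0.02 to -2.69, and the members' median from 3.39 to 0.66. *Fcgr4* remained higher, by 2.22 (adjusted p = 8.39e-05, edgeR), as did *Treml4* by 3.06 (adjusted p = 0.00609) and *Trem1* by 1.45 (adjusted p = 0.0137). *Fcgrt* turned to -1.45 (adjusted p = 0.00980), opposite to its TMM value. On this scale 0.869% of all genes tested were called higher and 86.2% lower.

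The other 6 members did not pass the test relative to the macrophage markers. *Fcer1g* had a log2 fold change of 0.94 (adjusted p = 0.0900, edgeR) and *Fcgr1* of 0.87 (adjusted p = 0.101). *Tyrobp* stood at 0.44, *Fcgr3* at 0.40, *Trem2* at 0.15 and *Fcgr2b* at 0.03, with adjusted p between 0.418 and 0.964. *Syk* itself was at 0.08 (adjusted p = 0.881). These calls changed with single libraries. Without M7 edgeR called 0 of the 10 members on this scale, and 1 had an unadjusted p under 0.05; a genotype left with 1 library is taken to vary like the other. Without M8 *Fcgr4* and *Treml4* passed, without M9 *Fcgr4*, *Trem1* and *Treml4*, and without M10 these 3 and *Fcgrt*. The log2 fold change of *Fcgr4* stayed between 1.58 and 2.66 in these fits and that of *Fcgrt* between -1.63 and -1.26. *Trem1* ran from 1.12 without M7 to 1.85 without M8, and *Treml4* from 2.31 without M7 to 4.27 without M8. Leaving *Mertk*, the marker that changed least, out of the scaling kept *Fcgr4* at 1.98 and *Treml4* at 2.82 and took *Trem1* to 1.20 (adjusted p = 0.0580, edgeR).

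With 6 pan-leukocyte genes as the reference, the median of all genes tested shifted to -3.34, and 0.456% were called higher and 91.2% lower. *Fcgr4* was higher by 1.55 (adjusted p = 0.00230, edgeR) and *Treml4* by 2.42 (adjusted p = 0.0249), while *Fcgrt* was lower, at -2.09 (adjusted p = 5.97e-05). *Trem1*, at 0.84, missed the threshold (adjusted p = 0.0535, edgeR). *Fcgr1* and *Fcer1g* stood at 0.21 and 0.28, and *Fcgr2b*, *Fcgr3*, *Tyrobp* and *Trem2* below 0, between -0.61 and -0.19, with adjusted p from 0.0613 to 0.527.

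**Figure D2:**
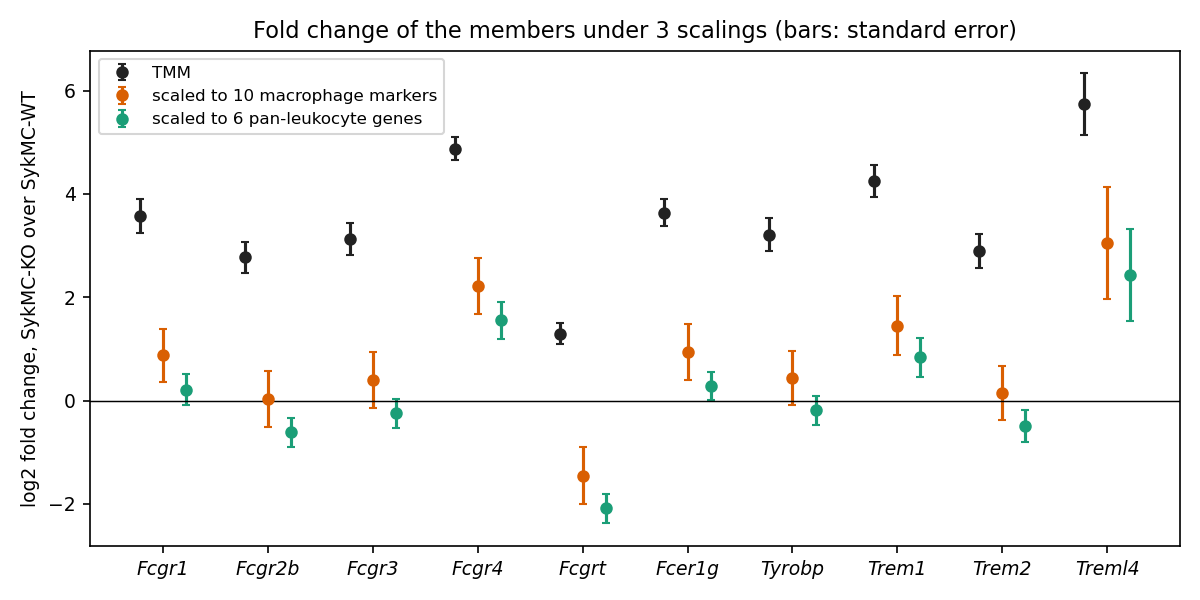
Log2 fold change of each member, SykMC-KO over SykMC-WT as labelled, with its standard error from edgeR, under TMM (black), scaling to 10 macrophage markers (orange) and scaling to 6 pan-leukocyte genes (green). *Fcgr4*, *Trem1* and *Treml4* lie above 0 under all 3, *Fcgrt* turns from 1.29 to -1.45 and -2.09, and *Fcgr2b*, *Fcgr3*, *Tyrobp* and *Trem2* lie below 0 under the leukocyte scaling only. The median of all genes tested is -2.69 under the macrophage scaling and -3.34 under the leukocyte scaling.

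Ratios within a library do not depend on any scaling between libraries. With each gene as counts per exon length, the sum of the activating genes *Fcgr1*, *Fcgr3* and *Fcgr4* divided by the inhibitory *Fcgr2b* was 2.69 and 2.60 in M7 and M8, and 3.83 and 4.68 in M9 and M10. Both libraries labelled SykMC-KO had the higher ratio. The means were 2.64 ± 0.0680 and 4.26 ± 0.599 (SD, n = 2 each), a 1.60-fold difference with an exact two-sided permutation p of 0.3333, the smallest that 2 libraries against 2 allow. *Fcgr4* alone over *Fcgr2b* gave 0.182, 0.247, 0.634 and 1.32, whereas *Fcgr3* alone gave 2.21, 2.11, 2.75 and 2.85. *Fcgr1* alone gave 0.298, 0.236, 0.453 and 0.508, so each of the 3 activating genes was higher against *Fcgr2b* in M9 and M10. The level of the summed ratio depended on length: undivided counts gave 0.836 and 0.793 in M7 and M8, and 1.16 and 1.37 in M9 and M10.

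Within the Fc gamma receptor transcripts, *Fcgr4* took 4.94% and 6.87% per length in M7 and M8, and 13.1% and 23.3% in M9 and M10. *Fcgr2b* went the other way, with 27.1% and 27.8% against 20.7% and 17.6%. *Fcgr3* was the largest part per length in every library, between 50.2% and 59.9%, and *Fcgr1* stayed between 6.56% and 9.38%. Without division by length *Fcgr2b* was the largest part instead, at 54.5%, 55.8%, 46.2% and 42.2% in the order M7 to M10. *Fcgr3* then lay between 35.3% and 38.1%. As plain shares of the counts of the 4 genes, *Fcgr4* was 2.15% in M7 (95% Wilson interval 1.83% to 2.53%), 2.99% in M8 (2.52% to 3.54%), 6.36% in M9 (6.13% to 6.59%) and 12.1% in M10 (11.7% to 12.5%). These intervals reflect counting error alone, since reads were not tied to single molecules.

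**Figure D3:**
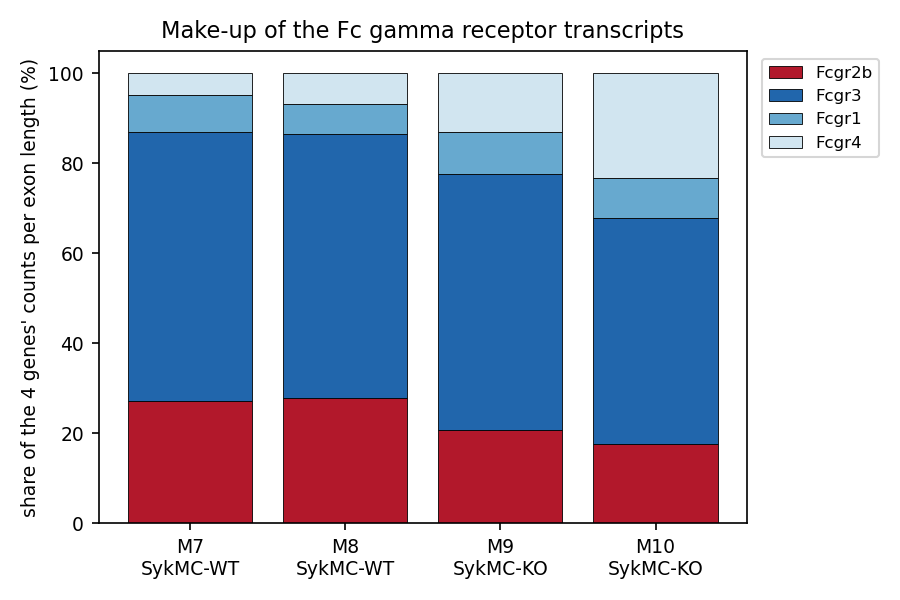
Share (%) of each Fc gamma receptor gene in the counts per exon length of the 4 genes, by library, M7 and M8 labelled SykMC-WT, M9 and M10 labelled SykMC-KO. The inhibitory *Fcgr2b* (red) is 27.1% and 27.8% against 20.7% and 17.6%, and *Fcgr4* (palest blue) 4.94% and 6.87% against 13.1% and 23.3%.

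The ratio of the adaptors, *Fcer1g* over *Tyrobp* per length, was 1.12 and 1.02 in M7 and M8, and 1.27 and 1.77 in M9 and M10. M10 stood apart, and M9 lay close to M7. The means were 1.07 ± 0.0686 and 1.52 ± 0.353 (SD, n = 2 each), and the log2 difference of 0.48 was 0.25 without M10, with an exact permutation p of 0.3333 for all 4 libraries. *Trem2* over *Trem1* was 3.14, 1.75, 0.941 and 0.909 in M7, M8, M9 and M10. It was lower in both libraries labelled SykMC-KO, with means of 2.44 ± 0.984 and 0.925 ± 0.0223 (SD, n = 2 each), a log2 difference of -1.34 and an exact permutation p of 0.3333. The level of this ratio, but not its difference between genotypes, depended on the length used for *Trem2*.

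**Figure D4:**
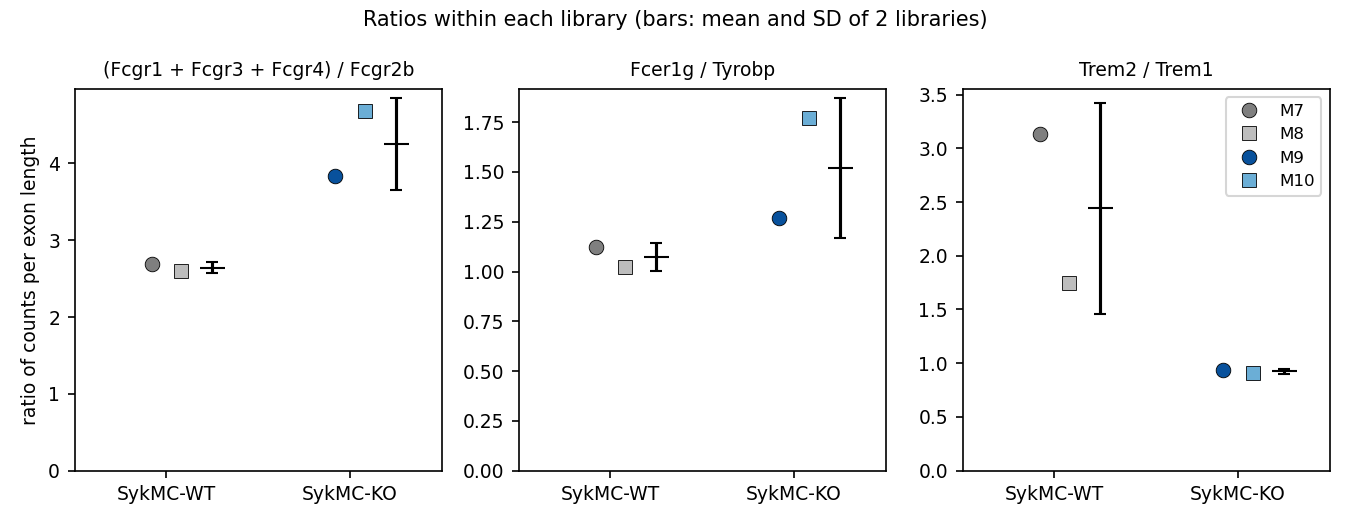
Ratios within each library of counts per exon length: activating over inhibitory Fc gamma receptor genes, *Fcer1g* over *Tyrobp*, and *Trem2* over *Trem1*; points are libraries, and bars the mean and SD of 2 libraries as labelled. The first ratio is 2.69 and 2.60 against 3.83 and 4.68, and the last 3.14 and 1.75 against 0.941 and 0.909.

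Other Fc receptor genes were mostly at low counts. Of 13, 5 passed the filter and 3 were called higher by edgeR. The median log2 fold change of the 5 was 2.02 on the TMM scale. Relative to the macrophage markers it was -0.77, beside -2.69 over all genes tested. *Fcrls*, a Fc receptor-like gene of microglia and macrophages, had 654, 302, 6704 and 3179 counts and a log2 fold change of 3.78 (adjusted p = 0.00199, edgeR). *Fcrlb* changed by 2.02 (adjusted p = 0.00677, edgeR), and *Trim21*, the cytosolic IgG receptor, stood at -0.36 (adjusted p = 0.368). *Fcer1a*, the IgE-binding chain that pairs with *Fcer1g* in mast cells and basophils, had 11, 8, 0 and 0 counts, and *Ms4a2*, the beta chain of that receptor, 0, 4, 1 and 0. The mast cell markers summed to 6.96 to 12.8 CPM in M7 and M8 and 5.78 to 8.06 CPM in M9 and M10.

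All 16 tested of 20 other receptors that pair with *Fcer1g* or *Tyrobp* were higher on the TMM scale, with a median of 3.60 and a range of 2.60 to 5.18, and a median of 0.79 relative to the macrophage markers. The C-type lectin *Clec4n* (Dectin-2), which uses the gamma chain, had 652, 377, 6181 and 2964 counts and changed by 3.56 (adjusted p = 0.00156, edgeR). *Clec4d* changed by 3.81 (adjusted p = 0.00161) and *Cd300ld* by 3.17 (adjusted p = 0.000884, edgeR). Relative to the macrophage markers 3 of the 16 were higher, beside 0.869% of all genes tested.

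Of the rest of the Trem cluster on chromosome 17, *Trem3* had 3, 9, 88 and 31 counts in M7, M8, M9 and M10 and changed by 3.64 (adjusted p = 0.0174, edgeR). *Treml2* had 12, 9, 142 and 115 counts and changed by 4.01 (adjusted p = 0.00186, edgeR). *Treml1*, known from platelets, had 6, 4, 5 and 8 counts and did not pass the filter. *Treml6* was not matched by symbol. Relative to the macrophage markers *Trem3* stood at 0.72 (adjusted p = 0.548, edgeR) and *Treml2* at 1.33 (adjusted p = 0.185).

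Among 9 other genes with an ITAM or a hemITAM, 5 were higher, with a median of 2.98 and of 0.41 relative to the macrophage markers. Those higher included *Cd3d*, *Cd3e* and *Cd3g*, chains of the T cell receptor complex. These had at most 41 counts in M9 and M10, and at most 4 in M7 and M8. Relative to the macrophage markers 0 of the 9 were higher and 1 lower, beside 0.869% and 86.2% of all genes tested. *Clec7a* (Dectin-1), whose tail carries a hemITAM, the single-tyrosine form, that recruits Syk, had 395, 260, 4141 and 2402 counts and changed by 3.73 (adjusted p = 0.000755, edgeR). The B cell receptor chains gave 4.05 for *Cd79b* (adjusted p = 0.00300) and 1.06 for *Cd79a* (adjusted p = 0.202, edgeR), both with at most 143 counts in a library. *Clec7a* stood at 0.99 relative to the macrophage markers (adjusted p = 0.0645, edgeR).

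Downstream of the ITAM, 16 of 18 kinases and adaptors were higher and 1 lower, with a median of 2.90 and of 0.20 relative to the macrophage markers. Src family kinases that phosphorylate the ITAM in myeloid cells rose on the TMM scale: *Lyn* by 3.11 (adjusted p = 0.000834) and *Fgr* by 4.20 (adjusted p = 0.000486, edgeR). *Src* was the gene that fell, at -0.75 (adjusted p = 0.0205, edgeR), and *Hcst*, which encodes the adaptor DAP10, changed by 3.001 (adjusted p = 0.00751). Relative to the macrophage markers *Fgr* alone of the 18 was higher, by 1.49 (adjusted p = 0.0123, edgeR). On that scale 7 were lower, beside 86.2% of all genes tested.

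Among negative regulators 8 of 10 were higher, with a median of 2.51 and of -0.24 relative to the macrophage markers. There 4 of the 10 were lower, beside 86.2% of all genes tested, whose median was -2.69. *Sirpa*, the inhibitory receptor for CD47, had 1968, 1179, 12840 and 7935 counts and changed by 3.14 (adjusted p = 0.00115, edgeR). *Pirb* changed by 2.69 (adjusted p = 0.000929) and *Csk*, the kinase that restrains Src family kinases, by 1.13 (adjusted p = 0.00336, edgeR), which turned to -1.60 (adjusted p = 0.00376) relative to the macrophage markers. *Cbl* and *Cblb*, ubiquitin ligases that end ITAM signals, stood at 0.55 (adjusted p = 0.0801) and -0.02 (adjusted p = 0.943, edgeR).

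Of 10 ligands and partners 7 were tested, 5 were higher and 1 lower, with a median of 1.92. The median relative to the macrophage markers was -0.82, beside -2.69 over all genes tested. *Apoe*, a ligand of Trem2, changed by 2.03 (adjusted p = 0.00671, edgeR), and *Adam10*, which sheds Trem2 from the cell surface, stood at 0.41 (adjusted p = 0.157). *Clu*, another ligand of Trem2, was the gene that fell, at -1.02 (adjusted p = 0.0277, edgeR). *Ighg2b*, the heavy chain of an IgG class bound by the product of *Fcgr4* and named here after its values were seen, had 0, 0, 25 and 82 counts, at least 24.6-fold higher against a floor of 3 counts per library, or at least 10.5-fold with M9 alone and 38.6-fold with M10 alone. Plasma cell markers gave 2 genes higher and 1 lower of 3 tested, and the part of plasma cell RNA was not tested.

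**Figure D5:**
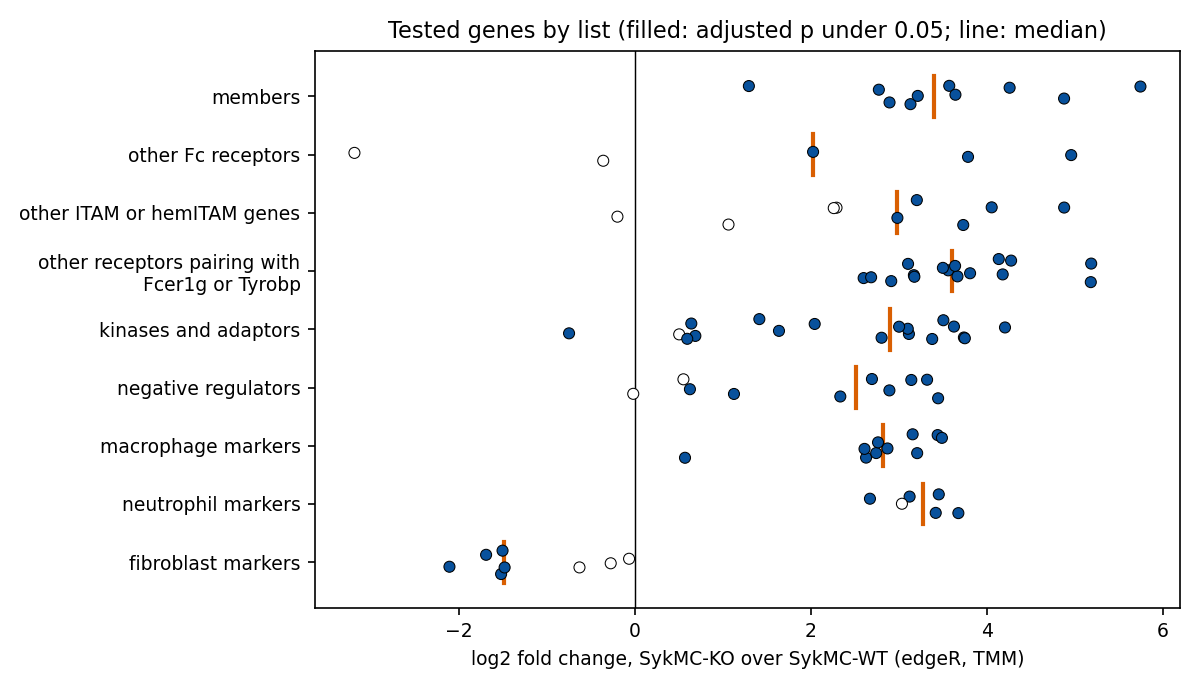
Log2 fold change, SykMC-KO over SykMC-WT as labelled, of each tested gene (edgeR, TMM) by list; filled points have an adjusted p under 0.05 and orange lines are medians. The members' median is 3.39, that of the macrophage markers 2.82 and that of the fibroblast markers -1.49; the macrophage marker scaling shifts the median of all genes to -2.69 and turns *Fcgrt* to -1.45.

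The genes with the pattern most like that of each adaptor over the 4 libraries were sought in all genes. Likeness was taken as the root mean square difference of centred log2 CPM, over 10041 genes with at least 10 CPM on average, and is a description. For *Fcer1g* the nearest genes were *Laptm5* (0.0254), *Tap1* (0.0553) and *Rac2* (0.0744), and *Fcgr1* was the nearest member, at rank 19. For *Tyrobp* they were *C1qa* (0.0389), *C3ar1* (0.0428) and *Clec4a2* (0.0536), with *Fcgr3* the nearest member at rank 17. *Laptm5* and *C1qa* belong to the pan-leukocyte and macrophage lists used for scaling.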

How the data were processed

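Libraries of polyA-selected RNA were sequenced by the submitters. Per the labels, TAMs were isolated with beads, although the same text names BMDMs at the extraction step and an adoptive transfer in the name of the table. The labels give paired reads and 2 libraries per genotype, the methods single reads in triplicate. The submitters' processing notes name mm10, STAR 2.6.1d, Salmon 1.4.0, SAMtools 1.9, Picard 2.26 and MultiQC 1.11. The authors deposited whole-number counts per Ensembl gene, not normalized; how they were made from Salmon's estimates is not given in the sources used here.

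Gene positions and exon lengths came from GENCODE M21 (54495 genes matched). Counts were fitted over the whole table in R 4.3.3 with edgeR 4.0.16 (filterByExpr, TMM, glmQLFit and glmQLFTest, Benjamini-Hochberg adjustment over 16451 genes, threshold 0.05). The TMM factors of M7 and M8 were 1.22 and 1.19, and those of M9 and M10 0.876 and 0.787. At these depths 3 counts equal 0.109 to 0.163 CPM. Ratios within a library were compared by exact permutation. Alternatives were DESeq2 1.42.0 size factors and Wald test, library size only, marker scalings, other filters and left-out libraries. The scripts were tested on simulated data.

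The members, lists and tests were chosen with earlier results of these data known. Named genes were the members, *Syk*, *Lyz2*, *Lyn*, *Fgr*, *B2m*, *Hcst*, the Trem cluster, the 3 genes of highest count in each other list, and the 3 genes nearest in pattern to *Fcer1g* and to *Tyrobp*. Others were named after their values were seen, and a few genes of the lists are not reported here. Protein sequences were not used here.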

Additional observations from a re-analysis of the deposited data

How the results depend on the processing

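All 10 members were called higher (adjusted p under 0.05) with DESeq2 size factors, library size only, no filter on low counts, mitochondrial and rRNA-like genes left out, the DESeq2 Wald test, and a minimum log2 fold change of 1. In the same order, the genes called higher over the whole table were 3466 of 16451, 1677 of 16451, 4174 of 26596, 3348 of 16437, 3582 of 18316 and 2426 of 16451. With at least 10 counts in every library 9 of 9 were, *Treml4* not passing, beside 3358 of 13725 genes. With each library left out under TMM the log2 fold changes of the members lay between 0.98 (*Fcgrt*) and 6.58 (*Treml4*). Library size alone shifted the median of all genes by -0.52. The marker scalings moved the count of members called. Relative to macrophage markers 3 were higher and 1 lower, beside 0.869% and 86.2% of all genes tested. Relative to pan-leukocyte genes 2 were higher and 1 lower, beside 0.456% and 91.2%. Relative to macrophage markers with a library also left out, an alternative added after the data were seen, the count higher lay between 0 and 3 and the count lower between 0 and 1. Without *Mertk*, also added, 2 were higher and 1 lower, beside 85 and 14425 of 16451 genes. The log2 fold changes that turned against TMM were those of *Fcgr2b* (-0.61), *Fcgr3* (-0.25), *Fcgrt* (-2.09), *Tyrobp* (-0.19) and *Trem2* (-0.49) relative to pan-leukocyte genes, *Fcgrt* (-1.45) relative to macrophage markers, and *Fcgrt* (-1.70), *Fcgr2b* (-0.21) and *Trem2* (-0.094) without *Mertk*. For *Fcgrt* the values relative to macrophage markers with a library left out were -1.63 (M7), -1.26 (M8), -1.33 (M9) and -1.59 (M10). The scaling reference itself makes these shifts. The log2 difference of the activating to inhibitory ratio, 0.68 for the sum, was 0.86 for *Fcgr1* alone, 0.37 for *Fcgr3* alone and 2.11 for *Fcgr4* alone. Across left-out libraries it lay between 0.54 and 0.82, that of *Fcer1g* to *Tyrobp* between 0.25 and 0.72, and that of *Trem2* to *Trem1* between -1.76 and -0.92. No paired analysis was possible because the labels give the genotypes no shared replicate numbers. With 2 libraries per genotype, and 2 and 5 counts in M7 and M8, the size of the *Treml4* difference is the least certain.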

Other observations

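*Fcgr4* and *Treml4*, the members higher in M10 than in M9, are known from non-classical monocytes. After this was seen, 10 other genes known from those cells were listed. Of the 10, 7 were higher in the libraries labelled SykMC-KO, beside 22.7% of all genes tested, with a median of 2.75 over the list. All 10 macrophage markers were higher too, with a median of 2.82. M10 was above M9 for 5 of the 10, beside 49.6% of all genes tested, and for 2 of the 7 called higher, *Pou2f2* and *Adgre4*, beside 28.5% of all genes called higher. *Pou2f2* had 89, 63, 1321 and 1733 counts in M7, M8, M9 and M10 and a log2 fold change of 4.76 (adjusted p = 0.000486, edgeR). Relative to the macrophage markers it was 2.15 (adjusted p = 0.000290, edgeR). The others called higher, *Spn*, *Cx3cr1*, *Itgal*, *Ceacam1* and *Gngt2*, had more in M9 than in M10. *Adgre4* had 22, 14, 174 and 304 counts and changed by 4.17 (adjusted p = 0.00204, edgeR). *Nr4a1*, the transcription factor of these monocytes, stood at -0.03 (adjusted p = 0.939) and *Ace* at -1.14 (adjusted p = 0.119, edgeR). Relative to the macrophage markers 2 of the 10 were higher and 3 lower, beside 0.869% and 86.2% of all genes tested.

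*Cd300e*, a receptor that pairs with *Tyrobp*, had 16, 25, 474 and 642 counts and a log2 fold change of 5.18 (adjusted p = 0.000729, edgeR), and 2.49 relative to the macrophage markers (adjusted p = 0.000844, edgeR). *Fcrl5*, a Fc receptor-like gene of B cells, had 4, 15, 154 and 293 counts and changed by 4.96 (adjusted p = 0.00397, edgeR). Among the B cell markers, *Ms4a1* and *Pax5* had at most 29 counts in any library, whereas *Cd22* had 124, 54, 459 and 325 counts and changed by 2.57 (adjusted p = 0.00443, edgeR). These genes were named after their values were seen.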
